A study of Mus musculus with 5 samples.

Results

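The RNA held by SMN, the survival of motor neuron protein, was examined for 10 genes of the AP-1 and immediate early response, out of 19937 genes that had a probe set of their own on the arrays. The members were the Fos family genes Fos, Fosb, Fosl1 and Fosl2, the Jun family genes Jun, Junb and Jund, and the immediate early genes Egr1, Ier2 and Myc. Each was read by the probe sets that carry its symbol and no other, and all 10 had exactly 1. The cells were NSC-34, a mouse line made by fusing neuroblastoma cells with spinal cord motor neurons. One group carried the 3XFLAG-flSMN construct (FLAG-SMN IP, 3 arrays) and the other had no FLAG construct (control IP, 2 arrays). Cells of both groups were grown in 10% serum and differentiated in 1% serum. The labels give 3 days for differentiation and 48 hours for differentiation before doxycycline. Both groups were given doxycycline at 3 µg/ml for 3 days, exposed to 400 mJ/cm2 of ultraviolet light and precipitated with anti-FLAG beads. The control IP thus measures RNA that the beads hold without a tagged protein. The labels do not say whether the tagged cells are 1 clone or whether replicates are separate cultures, so a p-value here speaks only of the spread among these precipitates, which may be technical. RNA of the lysates was not analysed here. A difference between precipitates therefore cannot be told apart from a difference in the RNA level of the cells.

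AP-1 is a transcription factor made of pairs of basic leucine zipper proteins. Jun proteins pair with each other or with Fos proteins, whereas Fos proteins need a Jun-type partner to bind DNA. Immediate early genes are switched on within minutes of a growth factor, depolarization or stress signal without new protein synthesis, and most of their mRNAs are short-lived. Ultraviolet light is a classical activator of this response through the Jun N-terminal kinases, and in neurons the same genes mark recent activity.

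Start-site sequences are shown for the 3 Fos family genes found in the reference and for Jun, because the Fos family held the largest differences between the precipitates and Jun is its main partner. RefSeq promoter entries (build GRCm38.p6) matched 6 of the 10 members, and Fosl1, Egr1, Ier2 and Myc had no entry. Each run below is the 100 bases before the annotated start, 5′ to 3′ on the strand of the gene. The windows are chr12:85473790-85473889 on the plus strand for Fos, chr7:19310046-19310145 on the minus strand for Fosb, chr5:32136372-32136471 on the plus strand for Fosl2 and chr4:95052223-95052322 on the minus strand for Jun. Capitals mark matches on either strand to TGACG, a cAMP response element core, or to TGANNTCA, an 8-base AP-1 and cAMP response element form.
Fos: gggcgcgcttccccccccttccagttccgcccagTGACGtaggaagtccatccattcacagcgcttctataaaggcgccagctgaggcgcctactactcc
Fosb: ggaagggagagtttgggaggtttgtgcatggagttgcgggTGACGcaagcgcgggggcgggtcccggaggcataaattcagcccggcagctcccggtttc
Fosl2: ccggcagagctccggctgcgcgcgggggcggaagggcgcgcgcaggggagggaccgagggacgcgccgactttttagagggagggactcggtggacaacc
Jun: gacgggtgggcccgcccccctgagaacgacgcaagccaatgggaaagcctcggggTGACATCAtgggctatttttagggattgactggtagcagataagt
Over the whole 250 bases before the start, TGACG was found in Fos (2 matches, the nearer at position -66), Fosb (position -60) and Junb (position -106), against 17.8% of all 32851 promoter entries. TGANNTCA was found in Jun (TGACATCA at position -45) and Jund (position -61), against 11.9% of entries. No match to TGANTCA, the 7-base AP-1 site (6.75% of entries), or to the CArG box bound by serum response factor (1.47% of entries) was found in these 6 windows. Sequence further upstream was not searched, so sites there would be missed. The motif sets do not overlap one another at these matches. The windows describe the genes only, since the arrays read RNA in precipitates and not promoter activity.

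None of the 10 genes passed the threshold of 0.05 after adjustment over all 28187 probe sets (limma adjusted p from 0.101 to 0.989). Across the arrays 9 probe sets (0.0319%) passed. At an unadjusted p under 0.05 in limma, 1 member (Fos) was higher in FLAG-SMN IP and 3 (Fosl1, Fosl2 and Myc) were lower. The same criterion held for 4.14% of probe sets on the higher side and 6.31% on the lower side, or 3.25% and 7.21% of named genes. The median log2 difference of the members was -0.16, against 0.018 for all probe sets. The groups did not overlap at 5 members, 1 higher and 4 lower, where 25.3% of probe sets showed no overlap. The 2 largest differences lay in the Fos family, and no Jun family gene had an unadjusted p under 0.05.

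**Figure D1:**
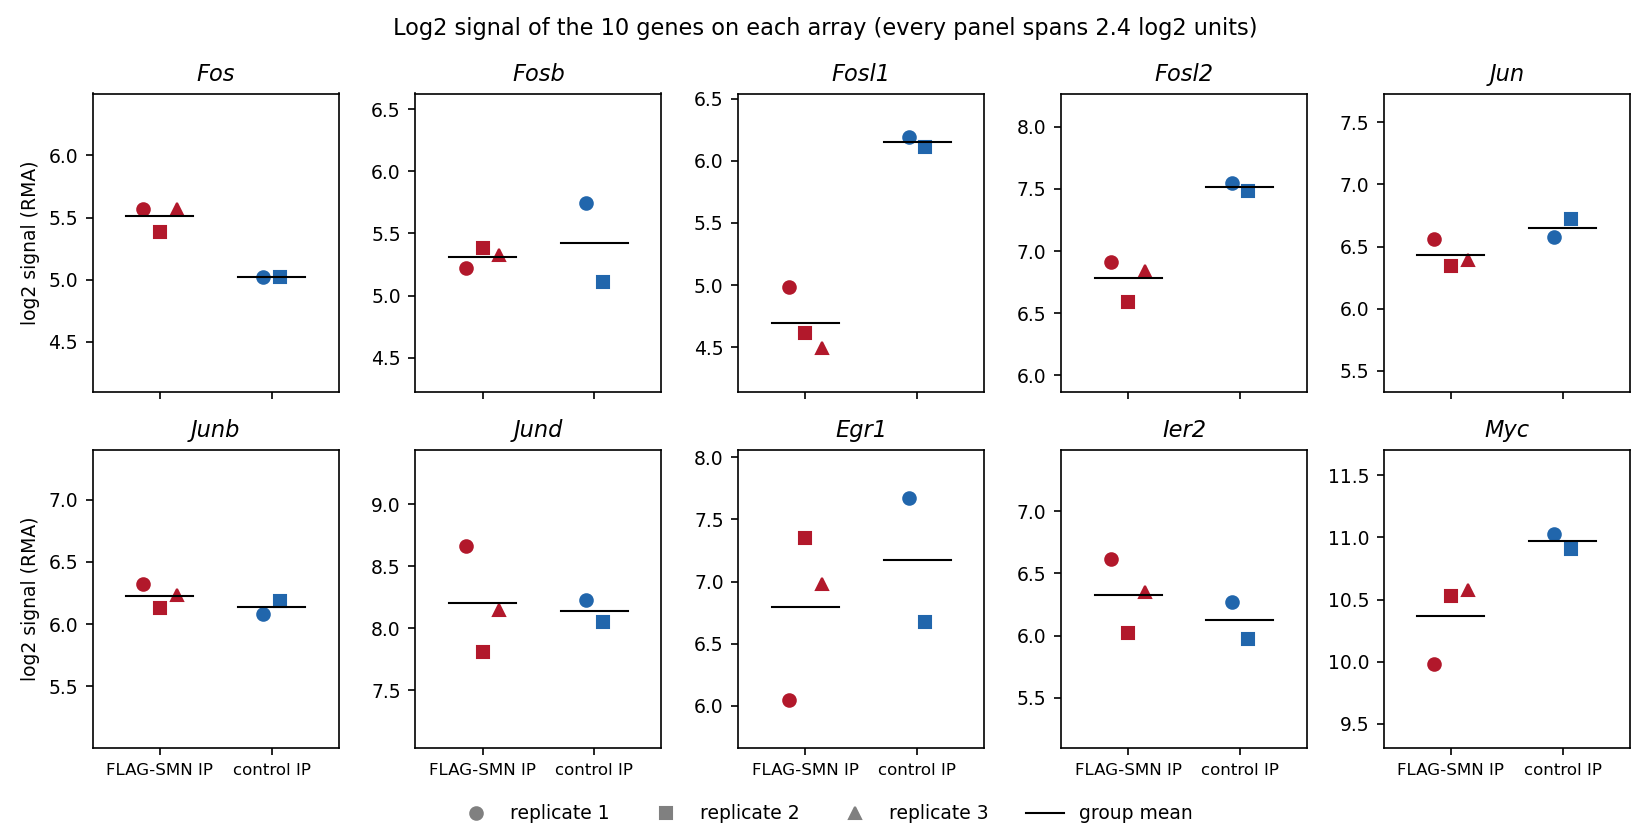
Log2 signal of each gene (y axis) on the 3 FLAG-SMN IP arrays (red) and the 2 control IP arrays (blue), with marker shapes for replicate numbers and lines for group means; every panel spans the same range but has its own centre. Fosl1, Fosl2 and Myc are lower on every FLAG-SMN IP array, Fos is higher on each, and Egr1 spreads widely in both groups.

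In the Fos family, Fosl1 had the largest difference of the 10 genes. Fosl1 encodes Fra-1, a Fos protein without the C-terminal activation domain of c-Fos, which is usually made later than c-Fos. Its log2 signal was 4.98, 4.61 and 4.49 in FLAG-SMN IP and 6.19 and 6.11 in control IP. All 3 FLAG-SMN arrays lay more than a log2 unit below both control arrays. The means were 4.70 ± 0.26 (SD, n = 3) and 6.15 ± 0.058 (SD, n = 2), a log2 difference of -1.45 (SE 0.21, 95% interval -1.95 to -0.95; limma unadjusted p = 0.000262, adjusted p = 0.101). The FLAG-SMN signals stood only 0.53, 0.29 and 0.19 above the median of the presumed control probe sets of their arrays, and the control IP signals 1.70 and 1.56 above it. How large the difference is cannot be read closely at this signal, and a fold is left out. Fosl1 passed the adjusted threshold when FLAG-SMN IP replicate 1 was left out (-1.60, limma adjusted p = 0.0165). In that fit 350 of all 28187 probe sets passed, against 9 over all 5 arrays, so the pass is not particular to Fosl1. Over the other alternatives adjusted p lay between 0.0799 and 0.613.

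Fosl2 encodes Fra-2, the other short Fos protein. Its signal was 6.91, 6.59 and 6.84 in FLAG-SMN IP against 7.54 and 7.49 in control IP, again with every FLAG-SMN array below both controls. The means of 6.78 ± 0.17 (SD, n = 3) and 7.51 ± 0.042 (SD, n = 2) gave a log2 difference of -0.73 (SE 0.19, 95% interval -1.18 to -0.29). This is 1.66-fold lower (limma unadjusted p = 0.00613, adjusted p = 0.238). Fosl2 was at least 2.26 above the presumed control median on each array, so its difference is read on a brighter probe set than that of Fosl1. The presumed controls spread widely, however. Fosl2 was brighter than 79.8% to 85.3% of them across the arrays, and Fosl1 in FLAG-SMN IP than 53.4% to 59.6%.

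Fos, the founding member, differed in the opposite direction. It read 5.57, 5.38 and 5.57 in FLAG-SMN IP and 5.02 on both control arrays, with no overlap between the groups. The mean of 5.51 ± 0.11 (SD, n = 3) against 5.02 (SD 5.92e-05, n = 2) gave a log2 difference of 0.48 (SE 0.17, 95% interval 0.069 to 0.90; limma unadjusted p = 0.0284, adjusted p = 0.396). The near-identity of the control values is a match of 2 arrays, and limma's SE draws on the spread of all probe sets. The signal was dim, with a mean over all arrays of 5.31 against 5.33 for the median probe set, and the control arrays stood 0.54 and 0.48 above the presumed control median, so a fold is left out here too.

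Fosb, whose product is a full-length Fos protein with a truncated neuronal form, showed no such separation. Its FLAG-SMN values of 5.22, 5.38 and 5.33 fell between the control values of 5.74 and 5.11. The log2 difference was -0.12 (95% interval -0.67 to 0.44; limma adjusted p = 0.964), and the control arrays were 0.64 apart. The sign depended on 1 array, since the difference was 0.20 without control IP replicate 1. Fosb was also dim, at 0.56 to 1.26 above the presumed control median across the arrays, so a difference could be missed.

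The 3 Jun family genes gave small differences. Jun, the main AP-1 activator and the target that gives the Jun N-terminal kinases their name, read 6.56, 6.34 and 6.39 in FLAG-SMN IP and 6.58 and 6.72 in control IP. The groups did not overlap, but the nearest arrays were almost level, and the log2 difference of -0.21 had a 95% interval of -0.64 to 0.21 (limma adjusted p = 0.833). Junb, a weaker activator that can oppose Jun, read 6.32, 6.13 and 6.24 against 6.08 and 6.19. Its groups overlapped, at a log2 difference of 0.094 (95% interval -0.32 to 0.51; limma adjusted p = 0.96). Jund, the family member that is expressed most steadily, read 8.66, 7.81 and 8.15 against 8.23 and 8.05. Its log2 difference of 0.066 (95% interval -0.59 to 0.72; limma adjusted p = 0.989) was smaller than the spread of its FLAG-SMN arrays, where replicate 1 stood 0.68 above the mean of replicates 2 and 3. The sign of Jund turned without that array (-0.16) and without control IP replicate 2 (-0.022). These intervals leave room for differences in either direction, so the Jun genes were not shown to be level between the precipitates.

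**Figure D2:**
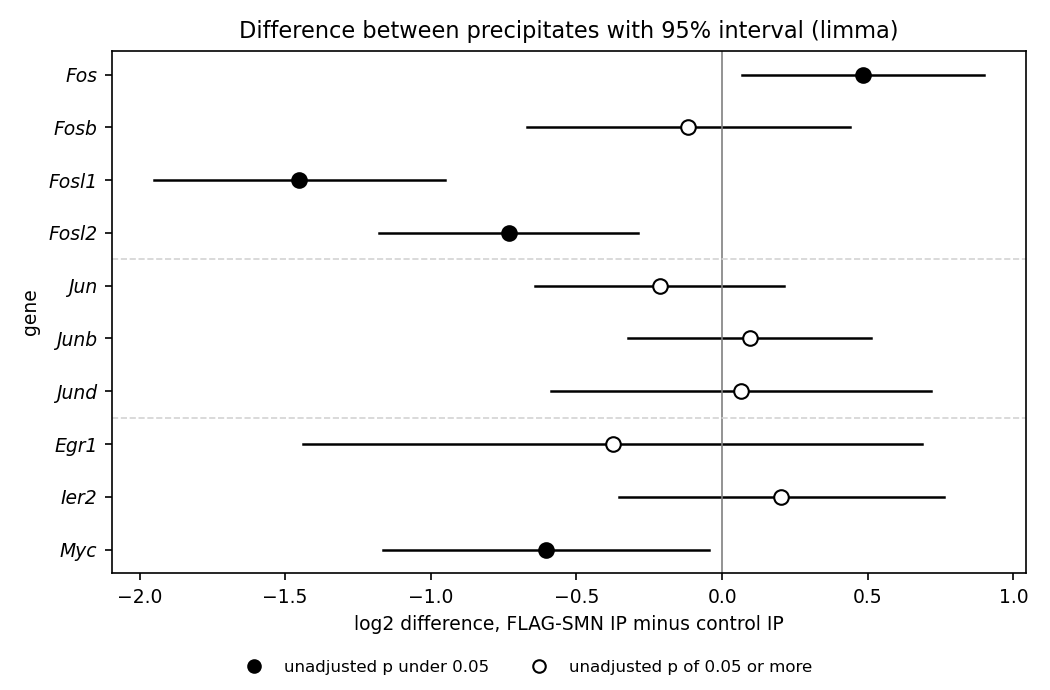
Log2 difference between FLAG-SMN IP and control IP (x axis) for each gene with its 95% limma interval; filled points have an unadjusted p under 0.05 and dashed lines part the Fos family, the Jun family and the other genes. Fosl1 at -1.45 and Fos at 0.48 mark the ends, and the intervals of all 3 Jun genes span 0.

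Of the other immediate early genes, Myc was lower in FLAG-SMN IP on every array. Myc encodes the growth-promoting transcription factor that works as a pair with Max. It read 9.98, 10.53 and 10.58 in FLAG-SMN IP and 11.03 and 10.91 in control IP. The means were 10.36 ± 0.33 (SD, n = 3) and 10.97 ± 0.081 (SD, n = 2). The log2 difference was -0.60 (SE 0.24, 95% interval -1.16 to -0.044), or 1.52-fold lower (limma unadjusted p = 0.0382, adjusted p = 0.437). FLAG-SMN IP replicate 1 was the lowest array, 0.57 below the other FLAG-SMN arrays (difference -0.57). Without it the difference was -0.41 (limma unadjusted p = 0.0677).

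Egr1, a zinc finger transcription factor gene that responds to the same signals as Fos, varied more within groups than between them. It read 6.05, 7.35 and 6.98 in FLAG-SMN IP and 7.67 and 6.67 in control IP. The control arrays were 1.00 apart and FLAG-SMN IP replicate 1 differed from the mean of replicates 2 and 3 by -1.12. The log2 difference of -0.38 had a 95% interval of -1.44 to 0.69 (limma adjusted p = 0.91). It was 0.12 without control IP replicate 1 and -0.88 without control IP replicate 2.

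Ier2, a small nuclear protein gene of the same response, read 6.61, 6.02 and 6.35 in FLAG-SMN IP and 6.27 and 5.97 in control IP. The groups overlapped, at a log2 difference of 0.20 (95% interval -0.35 to 0.76; limma adjusted p = 0.902).

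FLAG-SMN IP replicate 1 stood apart over the whole table (Pearson r = 0.964 and 0.968 with replicates 2 and 3 across probe sets, against 0.989 between those 2). Its r with control IP replicates 1 and 2 was 0.962 and 0.954. FLAG-SMN IP replicates 2 and 3 correlated more closely with the control arrays (0.968 to 0.977) than with replicate 1, so the arrays did not part cleanly by precipitate. Replicate 1 was the highest FLAG-SMN array for 7 of the 10 genes and the lowest for Egr1, Fosb and Myc. Without it, 2 members (Fosl1 and Fosl2, both lower) had an unadjusted p under 0.05 and the Fos difference was 0.45 (unadjusted p = 0.0526). Without control IP replicate 1, or without control IP replicate 2, the count was also 2, both lower. Fosl1 kept an unadjusted p under 0.05 in all 10 alternative fits that tested it and Fosl2 in all 11, whereas Fos did so in 5 of 10 and Myc in 5 of 11.

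**Figure D3:**
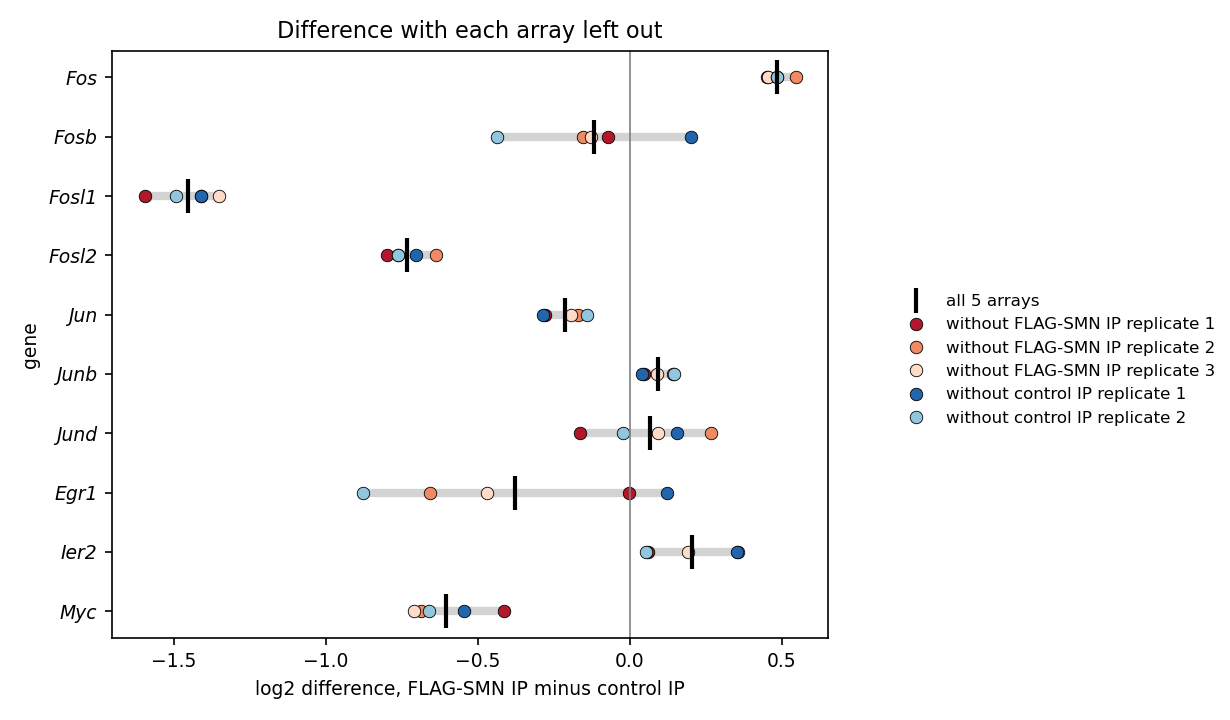
Log2 difference of each gene (x axis) over all 5 arrays (black bar) and with each array left out (coloured points; grey bands give their range). Fosl1 stays between -1.60 and -1.35 and Fosl2 between -0.80 and -0.64, while Fosb, Jund and Egr1 cross 0.

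The genes with profiles most like those of the members were found by the root-mean-square difference between array values centred on each gene's own mean, over the 5 arrays and 10775 brighter named genes. It was run for the 3 members that spanned at least 1 log2 unit. Nearest to Fosl1 were Lef1, a transcription factor of the Wnt pathway (0.054 log2 units), and Aig1 (0.081). Lef1 read 8.33, 8.02 and 7.80 in FLAG-SMN IP and 9.53 and 9.35 in control IP. Nearest to Egr1 were Lcn2, which encodes an iron-siderophore binding lipocalin (0.13), and Mien1 (0.16). Nearest to Myc were Srd5a3, a polyprenol reductase gene (0.018), and the sugar transporter gene Slc2a6 (0.023). With 5 arrays and so many candidates close profiles are easily found, and these are descriptions without a test.

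Genes around the response were taken from 8 lists, and 0 members of any list passed the adjusted threshold over all 5 arrays (limma). Without FLAG-SMN IP replicate 1, Mapkapk2, Mef2a, Id1, Id3, Elavl3, Ccl2 and Fosl1 passed it; without any other single array 0 did. Counts below are at an unadjusted p under 0.05 and rest on few arrays: leaving out 1 array changed them for every list. Over all named genes 3.25% were higher and 7.21% lower at that threshold, so counts of a few genes per list say little about a list. Upstream, of 14 kinases of the MAP kinase cascades with a probe set of their own, 2 were higher and 2 lower (median log2 difference 0.026). Mapk8 and Mapk10, which encode the Jun N-terminal kinases JNK1 and JNK3, were the lower pair. Mapk8 read 7.32, 7.52 and 7.57 in FLAG-SMN IP against 7.97 and 8.65 (-0.84, limma adjusted p = 0.29). Mapk10 differed by -0.83 (limma adjusted p = 0.374). Mapk9, which encodes the remaining kinase of this kind, JNK2, gave 0.31 (limma adjusted p = 0.849; named after its value was seen). The higher pair was Map3k1, a kinase kinase kinase of the same branch (0.80, limma adjusted p = 0.202), and Mapkapk2, a kinase downstream of p38 (1.02, limma adjusted p = 0.388).

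Of 16 transcription factors and coactivators that act on immediate early promoters, 0 were higher and 5 lower, and 13 of the 16 differences were negative. The list median was -0.49, against 0.0019 over all named genes. It was -0.25 without FLAG-SMN IP replicate 1, where 1 was higher and 3 lower. The count of lower genes was 0 without control IP replicate 2 and 2 without FLAG-SMN IP replicate 3, with list medians of -0.33 and -0.49. The 5 were the CREB coactivators Crtc2 (-1.03) and Crtc1 (-0.59), the factor gene Mef2a (-0.88), the serum response factor coactivator Mrtfa (-0.51) and the ternary complex factor Elk4 (-0.65). Crtc2 had the smallest p (limma adjusted p = 0.313), at 8.66, 8.97 and 7.92 in FLAG-SMN IP against 9.61 and 9.48 in control IP. Srf itself gave 0.44 (limma adjusted p = 0.82) and Creb1 -0.47 (limma adjusted p = 0.572). Both of these were named after their values were seen.

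Among 14 other leucine zipper partners of Fos and Jun proteins, 1 was higher and 2 lower (median -0.098). The smallest p-values belonged to Atf2, a Jun partner and kinase target (-0.55, limma adjusted p = 0.426), and Jdp2, a repressive Jun dimerization protein (0.59, limma adjusted p = 0.427). Batf3 was the second lower gene (-0.45, limma adjusted p = 0.464).

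Other immediate early transcription factor genes numbered 22, with 3 higher and 0 lower and a median of 0.0040. Hes1, a Notch-responsive repressor, read 7.09, 7.07 and 7.67 in FLAG-SMN IP and 6.08 and 6.34 in control IP (1.06, limma adjusted p = 0.211). Id1, an inhibitor of basic helix-loop-helix factors, gave 1.08 (limma adjusted p = 0.229) and the orphan receptor gene Nr4a1 0.55 (limma adjusted p = 0.413). The groups did not overlap at any of these genes, as at 25.3% of all probe sets. Genes picked by a small p are likely to be separate.

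Of 28 effector and feedback genes, 3 were higher and 2 lower (median -0.092). Spry2 and Spry4, both feedback inhibitors of receptor tyrosine kinase signalling, lay on opposite sides. Spry2 read 9.40, 8.45 and 8.68 in FLAG-SMN IP against 7.49 and 7.40 (1.40, limma adjusted p = 0.186). Spry4 read 7.32, 8.06 and 8.37 in FLAG-SMN IP, all below the control arrays, the lower of which was at 8.74 (-0.95, limma adjusted p = 0.355). Gadd45b, a stress sensor gene, gave 1.04 (limma adjusted p = 0.206), the GTPase gene Gem 0.79 (limma adjusted p = 0.347) and the MAP kinase phosphatase gene Dusp4 -0.59 (limma adjusted p = 0.404).

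**Figure D4:**
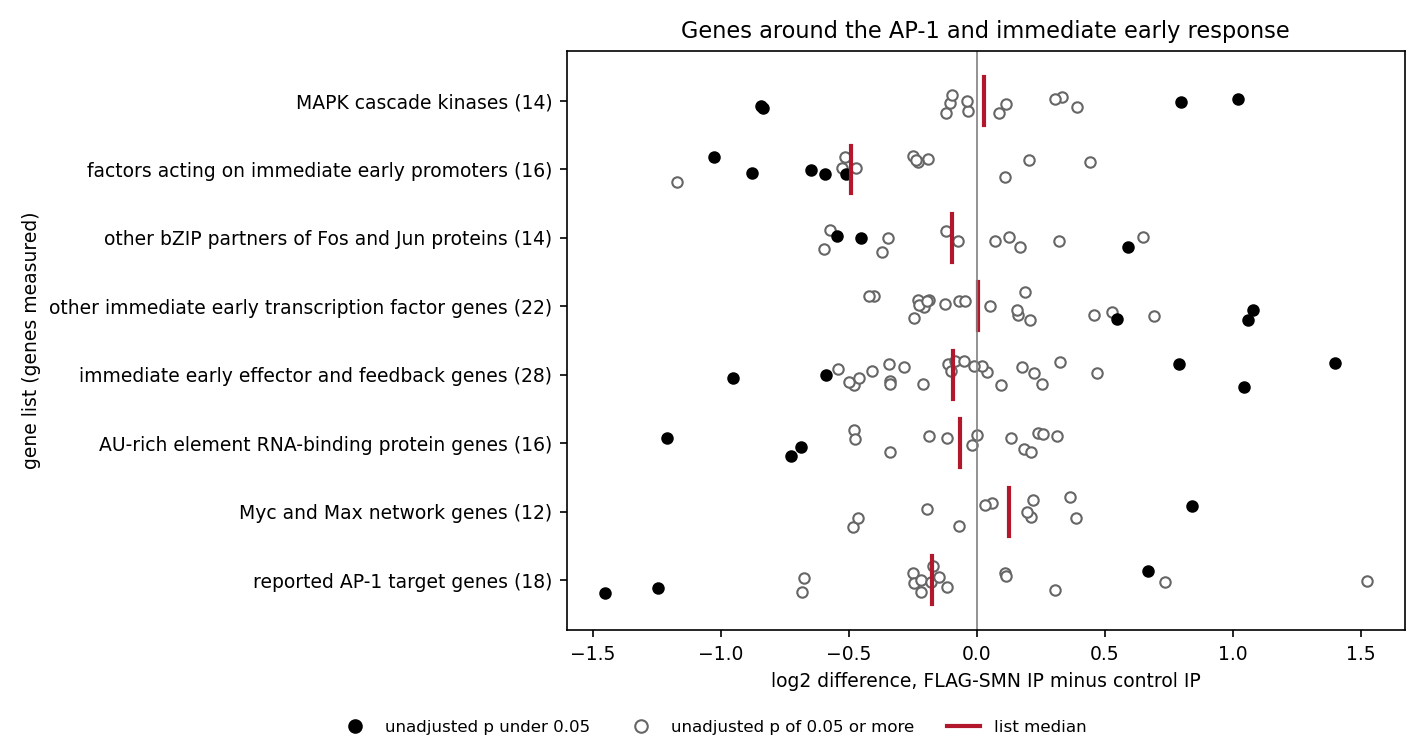
Log2 differences (x axis) of the measured genes in 8 lists around the response, with filled points for an unadjusted p under 0.05 and red bars for list medians; vertical scatter within a list has no meaning. The factors that act on immediate early promoters sit furthest left, at a median of -0.49, and no gene shown passed the adjusted threshold.

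Proteins that bind AU-rich elements control how long Fos and Myc mRNAs last. Of 16 genes for these and other mRNA-binding proteins, Pum2 and Igf2bp1 among them, 0 were higher and 3 lower (median -0.066). They were the decay factor Zfp36l2 (-0.68, limma adjusted p = 0.358) and the neuronal Hu proteins Elavl4 (-0.73, limma adjusted p = 0.425) and Elavl3 (-1.21, limma adjusted p = 0.428). In the Myc and Max network 1 of 12 genes was higher and 0 lower (median 0.13). That gene was Mxi1, a Max partner that opposes Myc, at 8.40, 7.31 and 7.67 against 6.88 and 7.02 (0.84, limma adjusted p = 0.426). The next was Zbtb17, the Myc-binding zinc finger gene (0.39, limma adjusted p = 0.52), and Mycn gave 0.058 (limma adjusted p = 0.987; named after its value was seen).

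Of 18 genes reported as AP-1 targets, 1 was higher and 2 lower (median -0.17). Fosl1 is itself on this list and was one of the lower pair. The other was the cytokine gene Il6 (-1.24, limma adjusted p = 0.315), which read 3.66, 4.30 and 4.73 in FLAG-SMN IP against 5.02 and 5.92. Its first 2 FLAG-SMN values lie below the presumed control medians of those arrays, so the size is uncertain. Vim, the vimentin gene, was the higher one (0.67, limma adjusted p = 0.467).

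Markers of the cell line were measured beside these genes. Of 15 motor neuron and neuronal markers 10 were above the presumed control median on all arrays, whereas Chat, Mnx1, Lhx3, Slc5a7 and Stmn2 were not. The median tested probe set also lay above this mark on every array (5.25 to 5.39, against 4.30 to 4.55 for the mark). Passing the mark therefore does not show that a marker is expressed. At an unadjusted p under 0.05 in limma, 0 of the 15 were higher and 3 lower (Snap25, Syp and Nefh), and 6 were lower without FLAG-SMN IP replicate 1. Over all named genes 3.25% were higher and 7.21% lower at that threshold. The summed linear signal of the 15 was 2117 to 4505 in FLAG-SMN IP and 3079 to 3411 in control IP. Without Prph, the brightest gene, it was 1578, 700 and 774 in FLAG-SMN IP replicates 1, 2 and 3, and 1559 and 1760 in control IP. Of 9 noradrenergic neuroblastoma markers, 2 were higher (Ddc and Gata3) and 4 lower (Th, Chga, Dbh and Chgb), while Phox2a, Gata2 and Hand2 gave -0.19, 0.078 and -0.016. The summed signal was 2409 to 3859 against 4968 to 5261, and without Chgb, its brightest gene, 2039 to 2303 against 2392 to 2915. Without FLAG-SMN IP replicate 1, 350 of all 28187 probe sets passed the adjusted threshold (limma), among them Th, Chga, Dbh, Chgb, Snap25 and Syp. Of 10 fibroblast markers 1 was lower, and of 8 glial and 7 myeloid and lymphoid markers none had an unadjusted p under 0.05. Only 1 of the glial and 3 of the myeloid and lymphoid markers were above the presumed control median on all arrays. The part of these marker differences in the values of Fosl1, Fosl2 and Myc was not tested.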

How the data were processed

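RNA from anti-FLAG precipitates was measured on 5 single-colour Affymetrix arrays, grouped by sample title. Per the labels' protocols, 300 to 500 ng of precipitated RNA was labelled with biotin. The table deposited by the authors holds log2 values (range 1.28 to 14.15), and RMA is named in the submitters' processing notes, with version and settings not given in the sources used here. RMA pulls arrays toward a common distribution, which hides a general difference in RNA recovered. The number of arrays limits the precision.

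Of 34760 probe sets, 6573 with IDs below the lowest annotated ID were presumed controls and left out, which kept 28187; their median per array served as a background mark. The platform annotation gives 1 symbol for 21640 of them, several for 1321 and no symbol for 5226; only the first kind were named, by the brightest probe set per gene. The fit was limma 3.58.1 (R 4.3.3; 2-sided lmFit and eBayes without a block), with p-values adjusted by Benjamini-Hochberg across the 28187 and a threshold of 0.05. Data for this comparison over 28187 probe sets were simulated. Changes of 1, 2 and 3 log2 units passed the adjusted threshold in 6.8%, 59.8% and 83.8% of cases. The simulation changed a small set of probe sets, shuffled spreads among probe sets and drew independent noise, with no array that stood apart. These shares therefore need not hold for the real arrays. Lists were described by counts and medians, without a list test. Named were every member, the 2 genes of smallest unadjusted p per list, and profile neighbours; further genes counted in groups of 5 or fewer were named after their values were seen. Members and lists were chosen with earlier results of these data known. Alternatives were cyclic loess, centring on brighter probe sets, brighter probe sets only, all probe sets, trend and robust moderation, the replicate block and leaving out each array; list counts without each array were added after the data were seen. Figures used matplotlib 3.10.9 in Python 3.11.15.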

Additional observations from a re-analysis of the deposited data

How the results depend on the processing

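The number of probe sets past the adjusted threshold was 9 (4 higher, 5 lower) and moved with most settings. It was 0 with cyclic loess (limma; unadjusted p under 0.05 at 1400 higher, 1781 lower), 0 with all probe sets of the table (1236 and 2125), 0 with the replicate block (998 and 1551) and 41 with arrays centred on the brighter probe sets. Leaving out each array gave 0 to 350, the highest without FLAG-SMN IP replicate 1. Among the 10 genes, the count at an unadjusted p under 0.05 was 4. It was 1 in the fit of brighter probe sets only, which holds 8 of the genes. That fit leaves out Fos and Fosl1, and Myc had an unadjusted p of 0.0558 in it (limma). The count was 2 to 4 with each FLAG-SMN IP array left out. With the replicate block it was 3, without Fos (unadjusted p = 0.129). Nothing in the labels ties equal replicate numbers together. The median difference of the 10 genes, -0.16, ranged from -0.29 to 0.083 with each array left out. Leaving out arrays turned the sign of Fosb (range -0.44 to 0.20), Jund (-0.16 to 0.27) and Egr1 (-0.88 to 0.12). The direction of the other 7 genes held in all alternatives run, but several of these could not turn a sign. The fits of brighter probe sets, of all probe sets and with trend and robust moderation leave each difference unchanged. The replicate block gave the same differences as leaving out FLAG-SMN IP replicate 3. Leaving out 1 array cannot turn the sign of Fos, Fosl1, Fosl2, Jun or Myc, whose groups do not overlap. Each member had 1 probe set, so averaging probe sets was not run. The cause of these shifts was not tested. Signals close to the presumed controls limit Fosl1 in FLAG-SMN IP, Fos in control IP and Fosb on its dimmer arrays.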
